A study of Homo sapiens with 8 samples.

Results

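The p53 protein is a transcription factor that responds to DNA damage and other stress, and its target genes include brakes on the cell cycle, DNA repair factors and genes of cell death. Of 10 such targets, chosen by gene symbol, 8 had at least 1 probe set assigned to them on the array, with 23 probe sets in all among 54675: CDKN1A, DDB2, PLK2, TP53I3 and XPC with 1 each, PLK3 with 3, ZMAT3 with 5 and MDM2 with 10. None of the 23 was shared with another gene. In the annotation used, no probe set was named BTG2 or FDXR, and these genes were not analysed here. RNA came from 293T cells, a line of human embryonic kidney origin with large T antigen of the virus SV40, given 5-NA, CBU-028 or EerI at 10 µM for 10 h, and from control cells, with 2 arrays per group. EerI (Eeyarestatin I) blocks the degradation of proteins from the endoplasmic reticulum. It joins a nitrofuran-containing group to an aromatic domain, and 5-NA (5-nitrofuryl-acrolein) corresponds to the nitrofuran-containing group alone. CBU-028 was a further bifunctional inhibitor of the study. Whether control cells received solvent was not stated, and the 5-NA samples have a number in their titles which a compound list of the study links to another compound, so that the 5-NA values rest on the other labels.

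In unstressed cells p53 is kept low by MDM2, a ubiquitin ligase that marks it for the proteasome, and MDM2 is itself a p53 target, which closes a negative feedback loop. CDKN1A encodes p21, an inhibitor of cyclin-dependent kinases. PLK2 and PLK3 encode stress-responsive polo-like kinases, ZMAT3 an RNA-binding zinc finger protein, and DDB2 and XPC proteins that recognise damaged DNA in nucleotide excision repair. TP53I3 encodes a quinone oxidoreductase. The large T antigen of SV40 binds p53 and blocks its action as a transcription factor, so these genes were followed here in cells in which p53 is held by a viral protein. Several of them also respond to other stress pathways.

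Expression values were log2 signals made by RMA, which subtracts background, brings arrays to a common distribution and summarises the probes of a probe set. Duplicates correlated at r = 0.995 to 0.998 across probe sets. Duplicate values of the member probe sets differed by a median of 0.102 in 5-NA, 0.238 in CBU-028, 0.0825 in EerI and 0.0694 in control cells on the log2 scale, so CBU-028 was the noisiest group. The 3′ minus 5′ difference of the ACTB probe sets was highest on the array of 5-NA replicate 2, at 0.36, against 0.07 to 0.20 on the 7 other arrays. That of the GAPDH probe sets was highest on the same array, at 0.013, against -0.112 to -0.067 on the 7 others. The part of these differences in the results was not tested. All 6 markers expected in 293T cells, such as VIM and NEFL, lay above the array median of 6.91 on every array. Among markers of other cells, PTPRC and MS4A1 of B cells and COL1A2, DCN and LUM of fibroblasts lay below that median on every array, whereas CD79A and COL1A1 lay above it on every array and CD79B lay at 6.84 to 7.13. As the samples were bulk RNA, fewer cells with a transcript and less transcript per cell cannot be told apart.

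Since the members share a regulator, the start regions that RefSeq gives for them (GRCh38.p14, 250 bases before to 50 bases after an annotated start) were searched for the p53 response element, allowing at most 2 mismatches and a spacer of up to 13 bases between its decamers, with the core C and G of each decamer kept. The element is palindromic, so 1 search covers both strands. All 10 genes had a window, with 16 windows in total, and 4 of these held a match: 2 overlapping windows of the 4 of MDM2, 1 of 2 of DDB2 and 1 of 2 of FDXR. Of all 35116 windows of that length, 2.93% held one. The CRE core TGACGT stood in the windows of PLK2 and XPC (7.98% of all windows), the AP-1 site TGANTCA in the later MDM2 windows (7.71%) and the CHOP-ATF4 composite site TGATGNAA in that of PLK3 (3.62%), each searched on both strands. A match is a run of letters and not shown to be bound, and 250 bases do not cover elements farther upstream or inside the gene. The windows of MDM2 and DDB2 are shown because they hold the p53 element. Those of PLK2 and PLK3 were picked because both genes rose with 5-NA, and hold a stress-response motif but no match to the p53 element. The window of XPC also holds a CRE core and no such match, and XPC did not pass with 5-NA. Both windows of ZMAT3, which also rose with 5-NA, hold no p53 element, CRE core, AP-1 site or CHOP-ATF4 site. Whether any of these motifs had a part in the changes was not tested. Capitals mark the decamers of the p53 element, the AP-1 site, the CRE core or the CHOP-ATF4 site.
MDM2, chr12:68808767-68809066, plus strand: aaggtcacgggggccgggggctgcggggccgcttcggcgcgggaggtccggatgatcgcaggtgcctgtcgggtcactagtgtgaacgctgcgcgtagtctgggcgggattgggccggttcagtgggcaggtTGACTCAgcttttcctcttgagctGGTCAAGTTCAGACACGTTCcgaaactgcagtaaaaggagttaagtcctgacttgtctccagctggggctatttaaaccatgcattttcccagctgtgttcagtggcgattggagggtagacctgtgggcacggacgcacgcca
DDB2, chr11:47214724-47215023, plus strand: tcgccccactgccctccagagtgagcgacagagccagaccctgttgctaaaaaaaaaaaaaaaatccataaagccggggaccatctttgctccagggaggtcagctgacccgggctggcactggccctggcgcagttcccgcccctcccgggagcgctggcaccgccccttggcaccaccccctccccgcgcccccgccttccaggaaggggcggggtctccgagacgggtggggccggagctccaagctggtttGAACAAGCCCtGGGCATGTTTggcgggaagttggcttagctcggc
PLK2, chr5:58460037-58460336, minus strand: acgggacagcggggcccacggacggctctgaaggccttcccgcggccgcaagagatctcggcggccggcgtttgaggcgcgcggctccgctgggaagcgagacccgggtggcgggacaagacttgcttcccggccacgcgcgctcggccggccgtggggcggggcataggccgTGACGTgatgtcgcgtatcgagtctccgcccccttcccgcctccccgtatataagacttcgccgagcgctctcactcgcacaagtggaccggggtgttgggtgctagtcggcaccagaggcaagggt
PLK3, chr1:44800127-44800426, plus strand: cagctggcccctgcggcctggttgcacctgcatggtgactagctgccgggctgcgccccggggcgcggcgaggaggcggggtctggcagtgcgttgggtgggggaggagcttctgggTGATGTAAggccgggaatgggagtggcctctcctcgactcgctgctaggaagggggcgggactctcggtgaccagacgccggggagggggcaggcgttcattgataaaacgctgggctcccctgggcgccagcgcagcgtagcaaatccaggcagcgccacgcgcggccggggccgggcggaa
In MDM2 the AP-1 site began 118 bases and the p53 element 94 bases before the annotated start, and the p53 element had no spacer and 2 mismatches. In DDB2 the p53 element had no mismatch and a spacer of 1 base, and began 5 bases after the start. The CRE core of PLK2 began 77 bases before the start, and the CHOP-ATF4 site of PLK3 lay farther upstream. The window of CDKN1A held none of these motifs, but 4 GC boxes (GGGCGG, both strands), a motif found in 45.0% of all windows.

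CDKN1A was among the most responsive members to 5-NA. Its log2 signal was 11.38 and 11.13 in 5-NA cells, 10.39 and 10.45 in CBU-028 cells, 10.15 and 10.13 in EerI cells, and 10.04 and 10.06 in control cells. Both 5-NA arrays stood above all others, the CBU-028 arrays lay between 5-NA and EerI, and the EerI arrays lay just above the control arrays without overlap. Against control, CDKN1A rose by 1.21 with 5-NA (2.31-fold, SE 0.0949, limma adjusted p = 0.000205) and by 0.37 with CBU-028 (1.30-fold, adjusted p = 0.0400). With EerI the difference of 0.09 did not pass (95% interval -0.12 to 0.31, adjusted p = 0.862). The 5-NA call held with any single array left out, with a highest adjusted p of 0.0043. The CBU-028 call was lost without any 1 of the CBU-028, EerI or control arrays, with an adjusted p of up to 0.213.

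**Figure D1:**
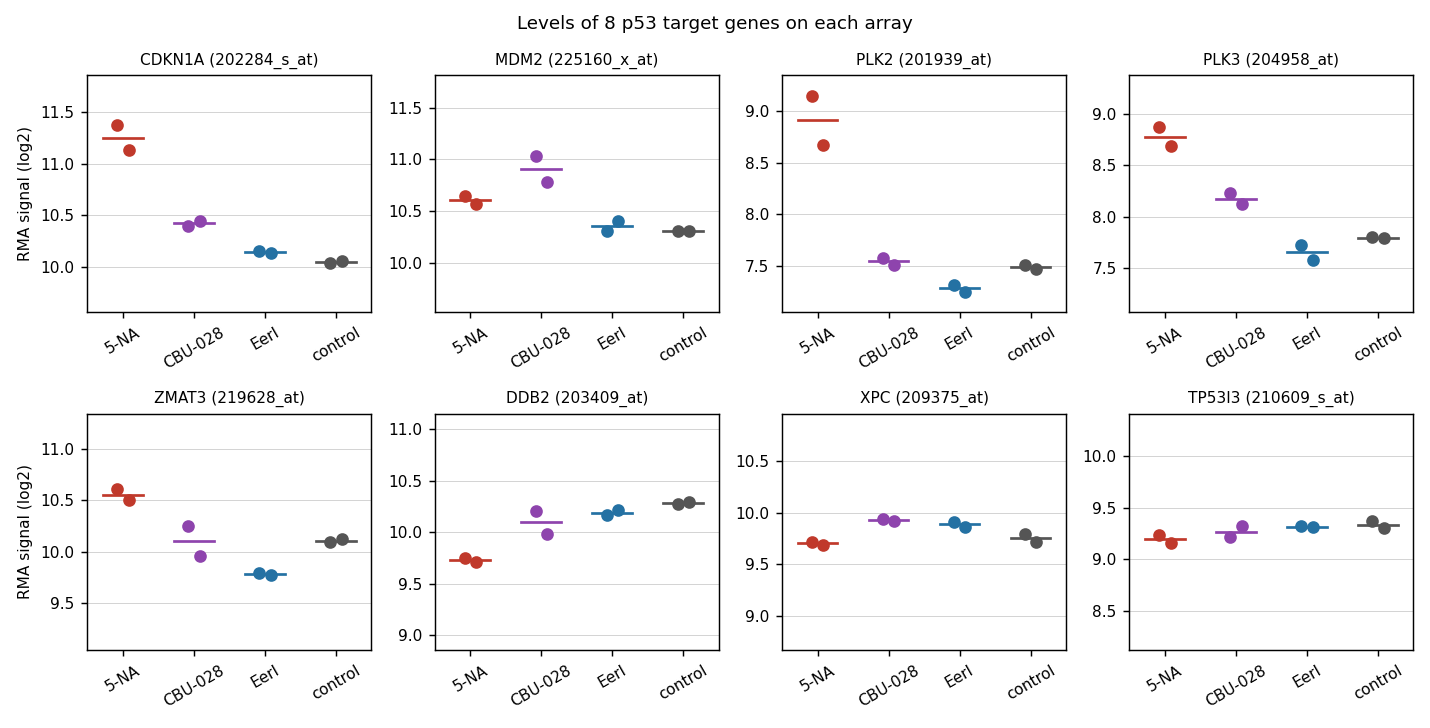
Log2 RMA signal (vertical axis) of the probe set with the highest mean of each of 8 genes, on each of 8 arrays (points), with group means (lines), for 5-NA, CBU-028, EerI and control cells. Every panel spans the same range of log2 units. The 5-NA arrays of CDKN1A, PLK2 and PLK3 lie above all other arrays, and those of DDB2 lie below all other arrays.

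Both polo-like kinase genes rose with 5-NA. PLK2 had log2 signals of 9.15 and 8.67 in 5-NA cells, 7.58 and 7.51 in CBU-028 cells, 7.31 and 7.25 in EerI cells, and 7.51 and 7.47 in control cells. Only the 5-NA arrays stood apart by more than 1 log2 unit, although they also differed from each other by more than the duplicates of any other group. The rise was 1.43 with 5-NA (2.69-fold, SE 0.136, limma adjusted p = 0.00042), the largest of any member probe set. CBU-028 gave 0.06 (95% interval -0.25 to 0.36) and EerI -0.21 (95% interval -0.51 to 0.10), and neither passed. PLK3, by its brightest probe set, had 8.87 and 8.69 in 5-NA cells, 8.23 and 8.12 in CBU-028 cells, 7.73 and 7.58 in EerI cells, and 7.80 and 7.80 in control cells. Its arrays fell into an ordered series with 5-NA highest, CBU-028 next and the EerI arrays just below the control arrays. PLK3 rose by 0.98 with 5-NA (1.98-fold, SE 0.0941, limma adjusted p = 0.000425) and by 0.38 with CBU-028 (1.30-fold, adjusted p = 0.0368). The EerI difference was -0.14 (95% interval -0.36 to 0.07). The 5-NA calls of both genes held with any single array left out, whereas the CBU-028 call of PLK3 was lost without CBU-028 replicate 1 or any 1 of the EerI or control arrays (adjusted p up to 0.191). The 2 dimmer PLK3 probe sets gave 0.28 and 0.04 with 5-NA and did not pass, so the rise of PLK3 rests on 1 of 3 probe sets.

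MDM2 rose with 5-NA and with CBU-028. Of its 10 probe sets, 6 were higher with 5-NA, 6 with CBU-028 and none with EerI by limma's adjusted p, and none of the 10 reached an unadjusted p under 0.05 with EerI. The probe set 238733_at moved most, with 8.49 and 8.47 in 5-NA cells, 8.40 and 8.11 in CBU-028 cells, 7.12 and 7.37 in EerI cells, and 7.31 and 7.10 in control cells. The 5-NA and CBU-028 arrays lay well above the EerI and control arrays, which overlapped. The rise was 1.27 with 5-NA (2.42-fold, SE 0.127, limma adjusted p = 0.000516) and 1.05 with CBU-028 (2.06-fold, adjusted p = 0.00163), and EerI gave 0.04 (95% interval -0.25 to 0.32). Both calls held with any single array left out.

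The brightest MDM2 probe set, 225160_x_at, had 10.64 and 10.57 in 5-NA cells, 11.03 and 10.78 in CBU-028 cells, 10.31 and 10.40 in EerI cells, and 10.31 and 10.31 in control cells. Here CBU-028 was highest, 5-NA next, and EerI overlapped control. It rose by 0.60 with CBU-028 (SE 0.0986, limma adjusted p = 0.0064), a call that was lost without either control array (adjusted p up to 0.0591). With 5-NA its difference of 0.30 did not pass (adjusted p = 0.0757), but it passed with 1 probe set per gene, with a mean log2 value of at least 7, in a fit of the compared groups alone, with a variance trend and without either CBU-028 array (adjusted p = 0.0240 to 0.0460). Among the other called probe sets, 217373_x_at rose by 0.94 with 5-NA and 1.03 with CBU-028, 205386_s_at by 0.56 and 0.74, 229711_s_at by 0.46 and 0.53, and 211832_s_at by 0.38 and 0.42 in the same order of compounds. The probe set 217542_at rose by 0.59 with 5-NA alone by this test, with 0.37 for CBU-028 (adjusted p = 0.125). Leaving out 1 array ended calls of each of these 5 probe sets. With 5-NA the adjusted p reached 0.262 for 211832_s_at without 1 array of 5-NA, EerI or control, and with CBU-028 it reached 0.266 for the same probe set, whose CBU-028 call held in 1 of the 8 such fits. The CBU-028 calls of 229711_s_at and 217373_x_at were lost without either control array, and that of 205386_s_at without control replicate 1. Probe sets 237891_at, 244616_x_at and 205385_at passed in no comparison with control when all arrays were used. The files do not say which part of the transcript each probe set covers, and the names ending in _x_at mark probe sets with probes that can also match other transcripts.

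**Figure D2:**
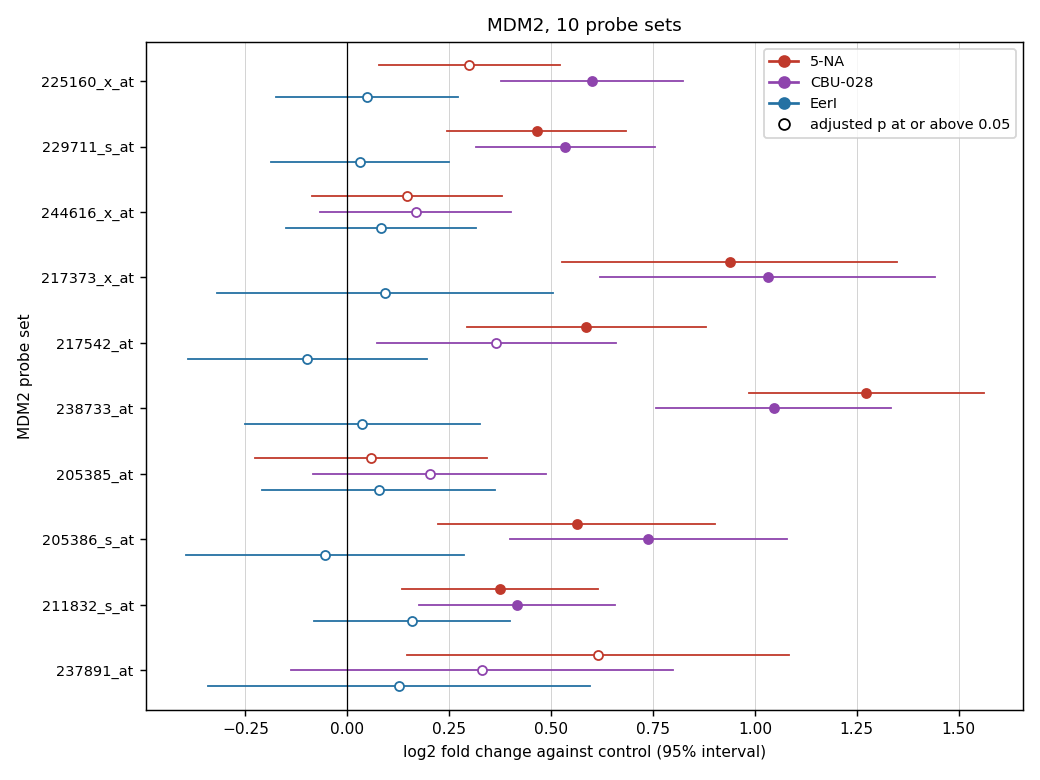
Log2 fold change against control (horizontal axis, bars are 95% intervals from limma) of the 10 MDM2 probe sets, brightest at the top, for 5-NA, CBU-028 and EerI (2 arrays each). Filled points passed an adjusted p of 0.05. The largest rises were those of 238733_at and 217373_x_at, and no EerI point passed.

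ZMAT3 rose with 5-NA in 3 of its 5 probe sets. The brightest, 219628_at, had 10.61 and 10.51 in 5-NA cells, 10.25 and 9.96 in CBU-028 cells, 9.80 and 9.78 in EerI cells, and 10.10 and 10.12 in control cells. The 5-NA arrays were highest and the EerI arrays lowest, and the CBU-028 arrays straddled the control arrays. The rise with 5-NA was 0.45 (1.36-fold, SE 0.104, limma adjusted p = 0.0201), and the adjusted p reached 0.122 when 1 array of 5-NA or control was left out, which ended the call in each of these 4 cases. Probe sets 225725_at and 1555609_a_at rose by 0.44 and 0.42 with 5-NA, whereas 228315_at at 0.37 and 227221_at at 0.01 did not pass. The call of 225725_at was lost without 5-NA replicate 1 or either control array, and that of 1555609_a_at without any 1 array of 5-NA, EerI or control. With EerI, 219628_at gave -0.32 (95% interval -0.56 to -0.08, unadjusted p = 0.0132 and adjusted p = 0.315 from limma), which did not pass. The other ZMAT3 probe sets also lay below control with EerI, at -0.28 for 227221_at, -0.25 for 1555609_a_at, -0.19 for 228315_at and -0.08 for 225725_at. With CBU-028, 227221_at gave -0.28 and 225725_at -0.20, whereas 228315_at gave 0.15 and 1555609_a_at 0.12. None of these passed.

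DDB2 was the only member that fell with 5-NA by the adjusted test. Its signals were 9.74 and 9.71 in 5-NA cells, 10.21 and 9.98 in CBU-028 cells, 10.16 and 10.22 in EerI cells, and 10.28 and 10.29 in control cells. Both 5-NA arrays lay below all others, and the control arrays lay above all others. DDB2 fell by 0.56 with 5-NA (0.680-fold, SE 0.0921, limma adjusted p = 0.00441), and the call held with any single array left out (adjusted p up to 0.0438). CBU-028 gave -0.19 (95% interval -0.40 to 0.02) and EerI -0.09 (95% interval -0.30 to 0.11). XPC, its partner in damage recognition, had 9.72 and 9.69 in 5-NA cells, 9.94 and 9.92 in CBU-028 cells, 9.91 and 9.87 in EerI cells, and 9.79 and 9.72 in control cells. XPC passed in none of the 6 comparisons, with -0.05 for 5-NA against control (95% interval -0.22 to 0.12). TP53I3 had 9.23 and 9.16 in 5-NA cells, 9.22 and 9.32 in CBU-028 cells, 9.32 and 9.31 in EerI cells, and 9.37 and 9.30 in control cells. It too passed in no comparison, with -0.14 for 5-NA (95% interval -0.32 to 0.05), an interval that ends well under the 1.21 of CDKN1A.

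**Figure D3:**
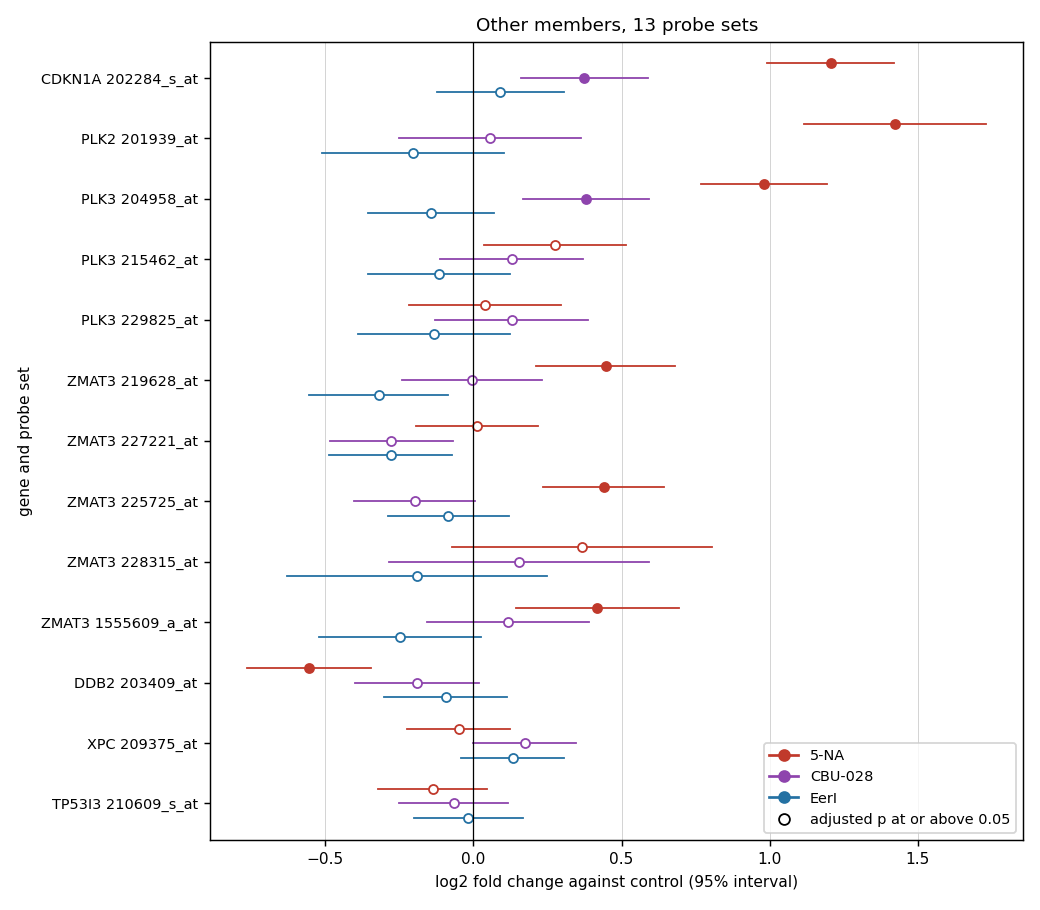
Log2 fold change against control (horizontal axis, bars are 95% intervals from limma) of the 13 probe sets of the 7 other genes, for 5-NA, CBU-028 and EerI (2 arrays each). Filled points passed an adjusted p of 0.05. PLK2 at 1.43 and CDKN1A at 1.21 lead with 5-NA, DDB2 lies at -0.56, and no EerI point passed.

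Counted over all members, 12 of the 23 probe sets were higher and 1 lower with 5-NA than in control cells, where 7.32% of all probe sets were higher and 7.9% lower. The median log2 fold change of the 23 was 0.42, against -0.01 over all probe sets, and 20 had 5-NA arrays that did not overlap the control arrays, as had 58.3% of all probe sets. With CBU-028, 8 were higher and none lower by limma (4.4% and 5.27% of all probe sets), with a median of 0.17 against 0.00 over all. Without adjustment, at a p under 0.05, CBU-028 gave 10 higher and 1 lower, where 11.2% of all probe sets were higher and 11.8% lower. With EerI none of the 23 passed in either direction by limma, where 0.357% of all probe sets were higher and 0.17% lower. Without adjustment, at a p under 0.05, EerI gave none higher and 2 lower (4.86% and 5% of all), and its median was -0.06. The methods' ANOVA, unadjusted, gave 3 of 23 with EerI, where 9.88% of all probe sets passed it, so the EerI counts stood near those of all probe sets. These comparisons share the control arrays, and the members were chosen with earlier results of these data known. Probe sets of a gene are not independent. By the brightest probe set of each gene, 4 of 8 genes were higher and 1 lower with 5-NA (7.87% and 10.9% of all genes). With CBU-028 3 were higher and none lower (5.49% and 7.1%), and with EerI none changed (0.506% higher and 0.263% lower). Single arrays weighed on the counts. The 13 calls with 5-NA became 6 without 5-NA replicate 1, 7 without 5-NA replicate 2, 6 without control replicate 1 and 5 without control replicate 2. The 5 calls that held with each array left out were those of CDKN1A, PLK2, PLK3, DDB2 and the MDM2 probe set 238733_at. The 8 calls with CBU-028 became 1 without control replicate 1, 2 without control replicate 2 and 5 without either EerI array, and only that of 238733_at held with each array left out.

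The compounds were also compared directly at the same dose and time, in 3 pairs over all probe sets. Against EerI, 5-NA gave 12 member probe sets higher and 1 lower (6.93% and 7.08% of all). The differences were 1.63 for PLK2 (SE 0.136, limma adjusted p = 0.000329), 1.13 for PLK3, 1.11 for CDKN1A, 1.24 for the MDM2 probe set 238733_at, 0.77 for ZMAT3 and -0.46 for DDB2 (adjusted p = 0.011). So 5-NA gave higher levels of CDKN1A, PLK2, 2 probe sets of PLK3, 5 of MDM2 and 3 of ZMAT3 than EerI, and a lower level of DDB2. In the lymphoma cells of the paper, 5-NA was toxic at a lower concentration than EerI. With a single dose, the missing aromatic domain and a difference in potency cannot be told apart. XPC gave -0.18 and TP53I3 -0.12, and neither passed. The DDB2 difference was lost without any 1 array of 5-NA or EerI (adjusted p up to 0.0856). The 13 calls of this pair became 8 without either 5-NA array, 7 without EerI replicate 1 and 6 without EerI replicate 2.

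Against CBU-028, 5-NA gave 5 member probe sets higher and 1 lower (5.51% and 5.09% of all). PLK2 differed by 1.37 (SE 0.136, limma adjusted p = 0.001), CDKN1A by 0.83 (adjusted p = 0.00162), PLK3 by 0.60 (adjusted p = 0.00509), and ZMAT3 by 0.45 in 219628_at and 0.64 in 225725_at. DDB2 was lower with 5-NA, at -0.37 (adjusted p = 0.0367). The calls of PLK2, CDKN1A, PLK3 and 225725_at held with each array left out, and those of DDB2 and 219628_at held in 1 of the 8 such fits. No MDM2 probe set passed in this pair with all arrays and probe sets, but 225160_x_at, lower with 5-NA by 0.30, passed with a mean log2 value of at least 7 (adjusted p = 0.0431), with a variance trend (0.0341) and without CBU-028 replicate 2 (0.0210). Probe sets 205385_at and 237891_at each passed in 1 of the 8 fits with 1 array left out. The interval of the difference was -0.06 to 0.51 for 238733_at and -0.52 to -0.08 for 225160_x_at, so the probe sets leaned in opposite directions.

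Against EerI, CBU-028 gave 6 member probe sets higher and none lower by limma (1.28% and 1.67% of all), and 13 higher and none lower without adjustment (8.33% and 9.23% of all). The 6 were 5 probe sets of MDM2, led by 238733_at at 1.01 (SE 0.127, limma adjusted p = 0.00916), and PLK3 at 0.52 (adjusted p = 0.025). CDKN1A gave 0.28 (95% interval 0.07 to 0.50, adjusted p = 0.158) and PLK2 0.26 (95% interval -0.05 to 0.57), and neither passed. None of the 6 calls held with each array left out, and the count was 0 without either EerI array, 1 without either control array, 2 without either 5-NA array or CBU-028 replicate 1, and 10 without CBU-028 replicate 2.

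Among 37 measured genes of a list of 38 other p53 targets, 16 were higher and 2 lower with 5-NA, 7 higher and 2 lower with CBU-028, and 3 higher and none lower with EerI by limma (without adjustment 3 higher and 7 lower). Of all 19775 genes, each by its brightest probe set, 7.87% were higher and 10.9% lower with 5-NA, 5.49% and 7.1% with CBU-028, and 0.506% and 0.263% with EerI. At an unadjusted p under 0.05 with EerI, 5.13% of all genes were higher and 6.71% lower. The list's median was 0.19, 0.12 and -0.04 with these compounds in turn. As the list was chosen with earlier results of these data known, its counts are a description only. SESN2, which restrains mTORC1, had 11.55 and 11.42 in 5-NA cells, 11.40 and 11.36 in CBU-028 cells, 10.85 and 10.80 in EerI cells, and 9.23 and 9.21 in control cells. It rose with all 3 compounds, by 2.26, 2.16 and 1.61, and each call held with every single array left out. GADD45A, a growth arrest gene, rose by 1.58, 1.60 and 0.60, and PMAIP1, which encodes the BH3-only protein NOXA, by 0.57, 1.05 and 0.79, although the EerI calls of both were lost without any 1 array of EerI or control, and the 5-NA call of PMAIP1 without 5-NA replicate 1 or either control array. TNFRSF10D, a decoy receptor for TRAIL, had 10.83 and 10.56 in 5-NA cells, 8.58 and 8.47 in CBU-028 cells, 8.57 and 8.64 in EerI cells, and 8.80 and 8.79 in control cells. It rose by 1.90 with 5-NA, with -0.27 for CBU-028 and -0.19 for EerI, neither of which passed. SERTAD1, a regulator of cyclin D and CDK4, rose by 1.42 with 5-NA, with 0.24 and -0.25 for the other compounds. TNFRSF10B, a TRAIL death receptor, rose by 0.96 with 5-NA and 0.59 with CBU-028, with -0.06 for EerI. The genes that fell with 5-NA were BAX, which permeabilises mitochondria in apoptosis, at -0.40 and TRIAP1 at -0.38, chosen for naming after their values were seen. Both calls were lost without any 1 array of 5-NA or control. Of the 18 calls with 5-NA, 10 held with each array left out, as did 5 of the 9 with CBU-028 and 1 of the 3 with EerI, that of SESN2. The number higher with 5-NA was lowest at 10, without control replicate 2, and none was lower with 5-NA without any 1 array of 5-NA or control. The number higher with EerI was 1 without any 1 array of EerI or control.

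**Figure D4:**
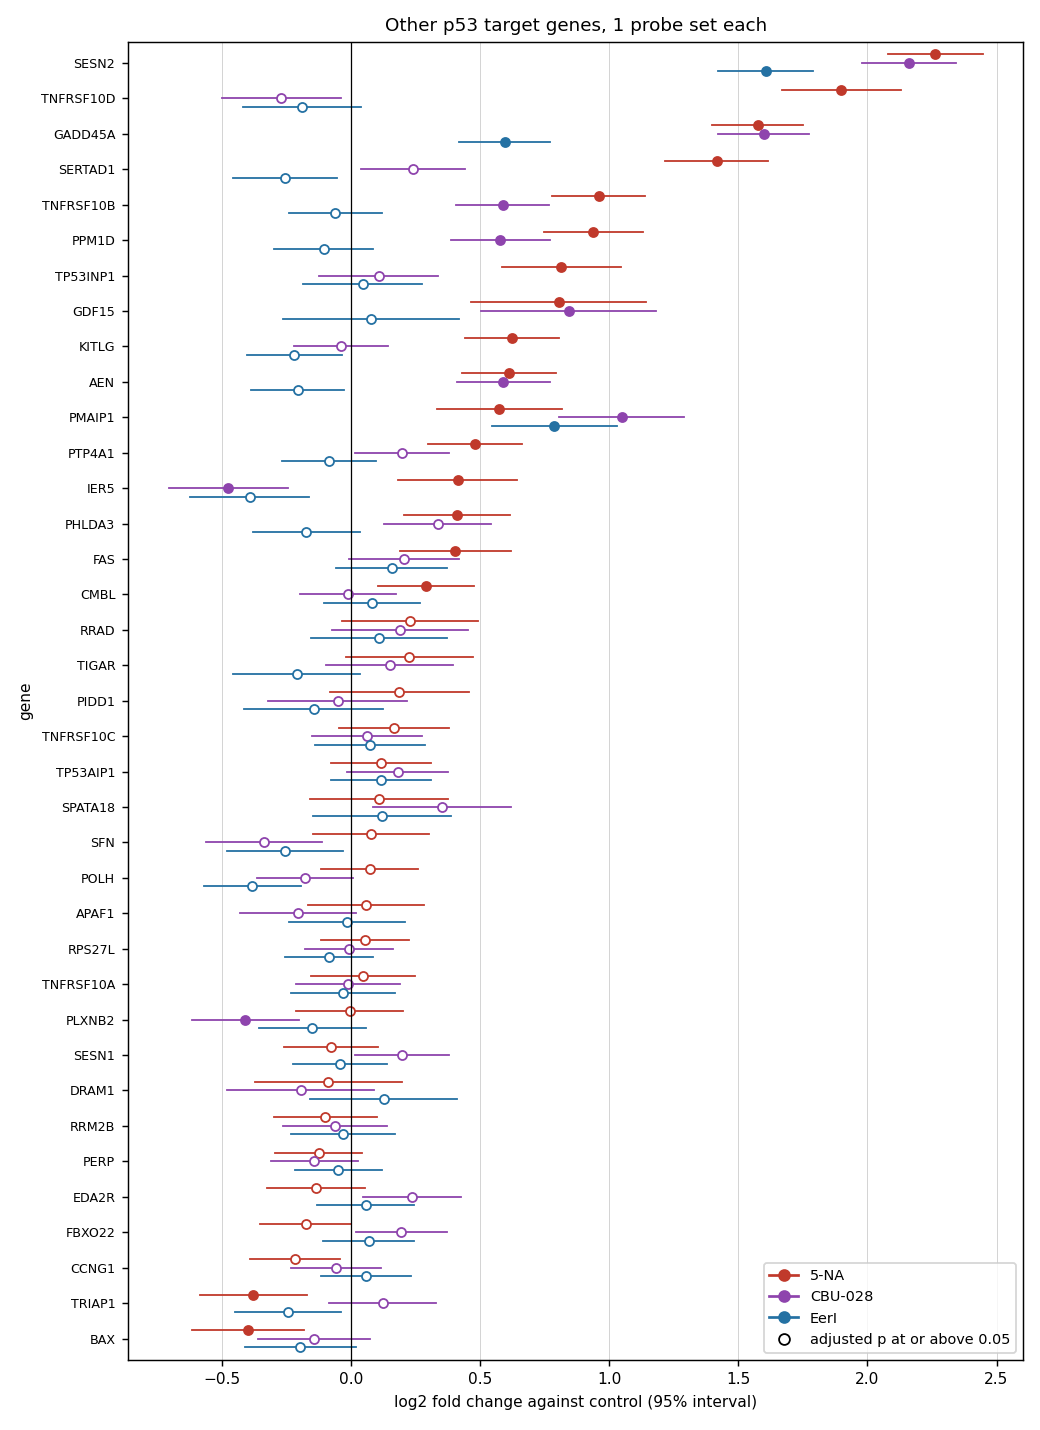
Log2 fold change against control (horizontal axis, bars are 95% intervals from limma) of 37 other p53 target genes, 1 probe set each, ordered by their value with 5-NA, for 5-NA, CBU-028 and EerI (2 arrays each). Filled points passed an adjusted p of 0.05. SESN2 leads at 2.26 with 5-NA, and BAX is lowest at -0.40.

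Of 21 measured regulators of p53 among 24 listed, 3 were higher and 4 lower with 5-NA, 4 higher and 1 lower with CBU-028, and none changed with EerI by limma. Of all genes, 7.87% were higher and 10.9% lower with 5-NA, 5.49% and 7.1% with CBU-028 and 0.506% and 0.263% with EerI. The unadjusted p with EerI was under 0.05 for 2 that were higher and 1 lower (5.13% and 6.71% of all genes). These counts are small, and the genes are given for their own values. MDM4, the inhibitory partner of MDM2, had 10.44 and 10.51 in 5-NA cells, 11.26 and 11.12 in CBU-028 cells, 11.12 and 11.16 in EerI cells, and 10.78 and 10.86 in control cells. It fell by 0.34 with 5-NA (adjusted p = 0.0254) and rose by 0.37 with CBU-028 (adjusted p = 0.0268), and EerI gave 0.32 (adjusted p = 0.198). The 5-NA arrays lay below the control arrays, and those of CBU-028 and EerI above them. The direct difference of 5-NA against CBU-028 was -0.72 (SE 0.085, limma adjusted p = 0.00184). Both calls against control were lost without any 1 array of EerI or control, with an adjusted p of up to 0.207, and also that with 5-NA without either 5-NA array and that with CBU-028 without CBU-028 replicate 1. TP53BP2, which binds p53 and favours its apoptotic targets, rose by 0.51 with 5-NA and 0.31 with CBU-028. RCHY1, another ubiquitin ligase for p53, rose by 0.52 with CBU-028. The checkpoint kinase gene CHEK2 and the acetyltransferase gene KAT5 fell by 0.49 and 0.46 with 5-NA. The 5-NA call of TP53BP2 held with each array left out, whereas those of RCHY1, CHEK2 and KAT5 were lost without either control array, that of CHEK2 also without 5-NA replicate 2. The CBU-028 call of TP53BP2 held in 1 of the 8 fits with 1 array left out (adjusted p up to 0.289).

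The partners of p21 were examined as a list of 13 cyclins, CDKs and Cip/Kip inhibitors. With 5-NA 3 were higher and 2 lower (7.87% and 10.9% of all genes), with CBU-028 none were higher and 3 lower (5.49% and 7.1%), and with EerI none changed by limma (0.506% and 0.263%). Without adjustment, 1 was higher with CBU-028 (12.1% of all genes), and 1 was higher and 3 lower with EerI (5.13% and 6.71%). CCNE1 and CCNE2, which encode the cyclins E that p21 inhibits together with CDK2, rose by 0.86 and 0.92 with 5-NA (limma adjusted p = 0.000543 and 0.00165), and both calls held with each array left out. CCNE1 had 11.46 and 11.40 in 5-NA cells, 10.62 and 10.78 in CBU-028 cells, 10.32 and 10.36 in EerI cells, and 10.62 and 10.53 in control cells. The 5-NA arrays stood above all the others, as they did for CDKN1A itself. CDKN1C, which encodes p57, rose by 0.65 with 5-NA and fell by 0.63 with CBU-028, with -0.73 for EerI (adjusted p = 0.127), and both calls were lost without any 1 array of 5-NA or control, that with CBU-028 also without CBU-028 replicate 1. CDKN1B, which encodes p27, fell by 0.75 with CBU-028 (adjusted p = 0.00228), with -0.21 for 5-NA and -0.24 for EerI. CCND2 fell by 0.40 with 5-NA and CCNA2 by 0.42 with CBU-028, and neither call held without control replicate 1 or control replicate 2. That of CCND2 was also lost without 5-NA replicate 2 or either EerI array.

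The mitotic kinase gene PLK1, of the same family as PLK2 and PLK3, fell with 5-NA and CBU-028. It had 10.01 and 10.04 in 5-NA cells, 9.87 and 9.57 in CBU-028 cells, 10.41 and 10.22 in EerI cells, and 10.41 and 10.71 in control cells. The difference was -0.53 with 5-NA (adjusted p = 0.0257) and -0.84 with CBU-028 (adjusted p = 0.00517), and EerI gave -0.25, which did not pass. The 5-NA call was lost without either 5-NA array or control replicate 2, and the CBU-028 call without control replicate 2 (adjusted p = 0.0515). PLK1 was 1 of 3 further polo-like kinase genes listed, and it alone was lower with 5-NA and with CBU-028 (10.9% and 7.1% of all genes). None of the 3 was higher with either compound (7.87% and 5.49%). The other 2 changed with none of the compounds by limma, at an adjusted or an unadjusted p under 0.05. Of 5 BTG and TOB genes, antiproliferative relatives of BTG2, 3 were higher with 5-NA (7.87% of all genes), and 2 were higher and 1 lower with CBU-028 (5.49% and 7.1%). EerI changed none by limma, and the unadjusted p was under 0.05 for 2 that were lower (6.71% of all genes). BTG3 rose by 0.82 and BTG1 by 0.73 with 5-NA, and both calls held with each array left out. BTG1 rose by 0.55 and BTG3 by 0.35 with CBU-028, with 0.15 and 0.02 for EerI. Without control replicate 2 neither of these CBU-028 calls held, and that of BTG3 was also lost without control replicate 1 or either EerI array. TOB1 rose by 0.49 with 5-NA, a call lost without 5-NA replicate 2 or any 1 array of EerI or control, and TOB2 fell by 0.70 with CBU-028.

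Nucleotide excision repair is the pathway of DDB2 and XPC. Of 16 measured genes of 17 listed, none were higher and 3 lower with 5-NA by limma (7.87% and 10.9% of all genes), 1 higher and 1 lower with CBU-028 (5.49% and 7.1%), and none changed with EerI (0.506% and 0.263%). Without adjustment, none were higher and 5 lower with 5-NA (13.1% and 18.4% of all genes), and none changed with EerI (5.13% and 6.71%). With 16 genes, these counts do not set the list apart from all genes. ERCC4, an endonuclease subunit, fell by 0.62 and ERCC2, a helicase of TFIIH, by 0.51 with 5-NA, and both calls held with each array left out. RBX1, a subunit of the ubiquitin ligase that contains DDB2, fell by 0.31 with 5-NA, a call lost without any 1 array of 5-NA, EerI or control. With CBU-028, ERCC2 fell by 0.39 and the damage-binding gene XPA rose by 0.43, and both calls were lost without either control array, that of ERCC2 also without CBU-028 replicate 1. Of 5 genes that work with ferredoxin, the electron acceptor of FDXR, 1 was lower with 5-NA and 1 with CBU-028 by limma (10.9% and 7.1% of all genes). None was higher with either compound (7.87% and 5.49%), and none changed with EerI (0.506% higher and 0.263% lower). Without adjustment, 1 was higher with CBU-028 (12.1% of all genes). Both adjusted calls were of NFS1, the cysteine desulfurase of iron-sulfur cluster assembly. It fell by 0.78 with 5-NA (limma adjusted p = 0.000622) and by 0.38 with CBU-028, a CBU-028 call lost without either control array.

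Across the 8 arrays, the genes whose signals ran most like CDKN1A, among 2927 with group means spanning at least 0.5 log2 units, were RYBP, TEX14 and FOSL1 (Pearson's r of 0.996 each). RYBP encodes a Polycomb-associated protein and FOSL1 the AP-1 subunit FRA1. FOSL1 had 9.00 and 8.89 in 5-NA cells, 7.90 and 7.96 in CBU-028 cells, 7.63 and 7.57 in EerI cells, and 7.52 and 7.50 in control cells, the same order of groups as CDKN1A. For DDB2 they were SMIM8 (r = 0.994), TMA16 (0.993) and POLE2 (0.991), the last a subunit of DNA polymerase epsilon. POLE2 had 10.91 and 10.91 in 5-NA cells, 11.36 and 11.19 in CBU-028 cells, 11.40 and 11.41 in EerI cells, and 11.43 and 11.46 in control cells. These correlations are a description over 8 arrays of 4 groups, and rest mainly on the distance of the 5-NA arrays from the others.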

How the data were processed

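RNA of 8 samples of 293T cells, 2 per group, was hybridised to Affymetrix arrays. The deposited log2 values were made by the authors with the RMA algorithm. Partek is also named in the labels, and no version is given for either tool. The array type in the methods differs from HG-U133 Plus 2.0, whose probe sets the table holds, and for RNA extraction the methods name TRIzol with RNeasy MinElute while the labels name RNeasy only. Genes were assigned from the platform annotation, in which 41097 of 54675 probe sets have a single symbol, 1801 several and 11777 none. Promoter windows came from RefSeq (GRCh38.p14).

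A mean per group was estimated with limma 3.58.1 (R 4.3.3) from the 8 arrays and all probe sets, with 4 residual and 5.08 prior degrees of freedom, and 6 comparisons were tested. A call is a Benjamini-Hochberg adjusted p under 0.05 over all probe sets of a comparison, with no fold threshold. Treatments were described as duplicates, so p-values reflect only the spread within these pairs of samples, which was pooled across groups. An exact test of 2 arrays against 2 cannot go below 0.333. In data simulated for 5-NA against control, 54475 of 54675 probe sets were left unchanged, and 84% of 1.5-fold and 100% of 2-fold changes passed. In the real comparison 7.32% of probe sets were called higher and 7.9% lower, a far larger share than was changed in the simulation. As the adjustment depends on that share, the simulated percentages are not the detection rate of the real comparison. The number of arrays limits the precision (median SE 0.099).

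The members and lists were chosen with earlier results of these data known. All member probe sets were reported. Otherwise a gene stands for its single-symbol probe set with the highest mean. Up to 6 genes per list were named by the largest change against control among those called, besides MDM4, PLK1 and CDKN1B. The genes most like CDKN1A and DDB2 were the 3 with the highest Pearson's r. Plots were made in Python 3.11.15 with matplotlib 3.10.9. Results were recomputed with the ANOVA of the methods (adjusted or not), fold thresholds, floors on dim probe sets, 1 probe set per gene, no _x_at probe sets, renewed quantile normalization, median centring, a variance trend, a replicate block, only the compared groups in the fit, and each array left out. The study's qRT-PCR and immunoblots were not analysed here.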

Additional observations from a re-analysis of the deposited data

How the results depend on the processing

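The counts of called member probe sets depended on the threshold more than on the scaling. For 5-NA against control the 13 calls became 5 by the methods' ANOVA with adjustment, 6 at a fold change of at least 1.5, 3 at 2-fold and 6 with 1 probe set per gene, and 5 to 16 with single arrays left out. For CBU-028 against control the 8 calls became 0, 4, 2 and 3 under these settings, 2 in a fit of the compared groups alone, and 1 to 10 with single arrays left out. For EerI against control the count was 0, and 3 by unadjusted ANOVA. For 5-NA against EerI the 13 calls became 6 by adjusted ANOVA, 4 at 2-fold, 5 with 1 probe set per gene, and 6 to 17 with single arrays left out. For 5-NA against CBU-028 the 6 calls became 3 by adjusted ANOVA, 1 at 2-fold, and 4 to 9 with single arrays left out. For CBU-028 against EerI the 6 calls became 0 by adjusted ANOVA, 3 at a 1.5-fold change, 1 at 2-fold, 2 with 1 probe set per gene, 0 in a fit of the compared groups alone, and 0 to 10 with single arrays left out. With 1 probe set per gene at most 8 could pass. The cause of the other changes was not tested. By the brightest probe set of each gene, no log2 fold change called in the main fits changed direction. The direction of the counts and of the other probe sets was not compared in this way. Deviations of same-numbered arrays correlated only weakly between groups, at -0.146 to 0.146, so no strong effect shared by replicate number was seen. Whether the samples were handled in pairs cannot be told from these values. With a replicate block the counts were 14, 0, 7, 12, 6 and 6 in the order of 5-NA, EerI and CBU-028 against control, 5-NA against EerI, 5-NA against CBU-028 and CBU-028 against EerI, and the CBU-028 call of CDKN1A against control was not made (adjusted p = 0.0518). RMA brings arrays to a common distribution, so the signal over background of an array could not be judged.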
